A study of Homo sapiens with 6 samples.

Results

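Mucins are large glycoproteins whose serine- and threonine-rich repeats carry dense O-linked sugar chains. Membrane mucins such as MUC3A, MUC1, MUC12 and MUC13 are anchored in the apical membrane of epithelial cells, where their extracellular chains form a barrier and, for MUC1, the cytoplasmic tail takes part in signalling. Secreted gel-forming mucins such as MUC2, MUC5AC, MUC5B and MUC6 polymerise into mucus, and MUC2 is the main mucin of colonic goblet cells. The genes described here are MUC3A, the gene that was targeted, and 8 other mucins (MUC1, MUC12, MUC13, MUC20, MUC5AC, MUC5B, MUC2 and MUC6), listed by name. Of these 9 genes, 6 had a row in both deposited comparison tables, which hold 15977 genes when joined, and 5 had enough reads to be tested.

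The study compared HCT116, an established human colorectal carcinoma line, after lentiCRISPR v2 delivery of Cas9 and 1 of 2 single guide RNAs against MUC3A. The groups are KO1 (the first guide), KO2 (the other guide) and WT, which the labels call both wild type and negative control. Per the labels' protocols, lentivirus made in HEK293T cells was added at a multiplicity of infection of 10 and infected cells were selected with 2 µg/mL puromycin for 72 h. A scrambled-vector control virus is described, but whether the WT libraries came from cells that received it could not be settled. No cloning step is described. Each group has 2 poly(A) RNA-seq libraries, distinguished by a column prefix, HCT or HCT116. The 3 libraries that share a prefix form a set. What the prefix stands for is not stated in the labels, nor whether a group's libraries come from different cultures. The p-values therefore measure a spread between libraries that may be technical.

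Library totals lay between 13638724 and 17830282 reads. The 2 sets stood apart: of 12679 genes tested, 63.9% differed between the HCT116 set and the HCT set at an adjusted p of 0.05, by edgeR's quasi-likelihood test. Every group is in both sets, so each value is given by set, differences were fitted with the set as a term, and levels are read counts scaled to library size by TMM and expressed as CPM. Log2 ratios within a set come from log2 CPM with a prior count of 2, added before the log. This shrinks the ratios of genes with few reads, so they can be smaller than the printed CPM values give. With the set in the model 2 residual degrees of freedom were left, and without it edgeR called 0 genes in any comparison of groups, although 173 genes (KO1 to WT), 310 (KO2 to WT) and 515 (KO2 to KO1) had an unadjusted p of 0.05 or less. DESeq2 without the set term called 16, 44 and 119 genes in the same comparisons. The share of all genes at an unadjusted p under 0.05 with the set term is not given here. Counts of listed genes at that p below are therefore a description and are not read as a result. Of 13 colon epithelial markers 11 had a row and 6 were tested. EPCAM, an epithelial adhesion gene, lay at 219 to 289 CPM, CDH1 (E-cadherin) at 61.01 to 184 CPM, the intestinal factor CDX2 at 14.4 to 43.9 CPM, and the keratins KRT8, KRT18 and KRT19 at 849 to 8139 CPM. The other 5 were below the filter: VIL1 had 7 reads over all 6 libraries, CDX1 2, CEACAM5 2, GPA33 25 and CDH17 22.

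Both guides target the same exon of MUC3A. The 20-base targets are shown with the PAM, the motif that Cas9 needs beside its target, in capitals, because they define the KO1 and KO2 groups.

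KO1 target: gaaggcaaacttggacgtcgGGG

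KO2 target: ttctccacactccagagaccTGG

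In GENCODE V29 on GRCh38, the KO1 target lies at chr7:100952090-100952109 on the minus strand and the KO2 target at chr7:100951917-100951936 on the plus strand. Both fall in coding sequence of exon 2 in the transcripts of 12 and 11 exons, within the gene at chr7:100949555-100968346. The stretch at chr7:100951907-100952119, plus strand, shows how close they are, with both 20-base targets in capitals (the KO1 target as its reverse complement).

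MUC3A exon 2 stretch: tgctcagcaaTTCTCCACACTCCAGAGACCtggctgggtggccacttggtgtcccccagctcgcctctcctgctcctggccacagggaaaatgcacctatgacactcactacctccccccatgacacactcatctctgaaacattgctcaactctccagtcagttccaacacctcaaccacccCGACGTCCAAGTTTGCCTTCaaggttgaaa

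The targets are 153 bases apart and the expected cut positions 159 bases apart. Transcripts of the other members and of MUC4, MUC7, MUC15, MUC16, MUC17, MUC19, MUC21 and MUC22 were searched for further matches. In these, the closest match beside an NGG PAM had at least 7 mismatches for the KO1 guide and at least 6 for the KO2 guide. MUC3B and the rest of the genome were not searched. In MUC1 transcripts the fewest were 9 for the KO1 guide and 7 for the KO2 guide, and in MUC13 transcripts 9 and 8.

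MUC3A transcript was present in all 6 libraries and did not pass the test in either comparison with WT. MUC3A counted 789 reads in the HCT library and 370 in the HCT116 library of KO1, 574 and 356 in KO2, and 810 and 319 in WT. Scaled for depth, these were 52.9 and 28.6 CPM in KO1, 30.04 and 24.6 CPM in KO2, and 52.7 and 25.1 CPM in WT. The groups overlapped in both comparisons with WT, and KO2 stood below the others in the HCT set, while the 3 libraries of the HCT116 set lay close together. Group means were 40.7 ± 17.2 CPM in KO1, 27.3 ± 3.85 CPM in KO2 and 38.9 ± 19.5 CPM in WT (SD, n = 2 each).

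The fitted log2 fold change of MUC3A was 0.08 ± 0.18 (SE) in KO1 against WT, with a 95% interval of -0.32 to 0.49 and an edgeR adjusted p of 0.962. In KO2 against WT it was -0.43 ± 0.19, with an interval of -0.84 to -0.02 and an edgeR adjusted p of 0.237. Set by set, the log2 ratio of KO2 over WT was -0.81 for the HCT pair and -0.03 for the HCT116 pair. The fitted value was -0.77 without the HCT116 library of KO2 and -0.08 without the HCT library of KO2. Between the guides, KO2 against KO1 gave -0.52 ± 0.19 (edgeR adjusted p 0.113). That value was -0.84 without the HCT116 library of KO2 and -0.17 without the HCT library of KO2. Each of these fits leaves 1 library in KO2, so only the size is given. Counts summed over a gene do not read the cut site, so these values give the amount of MUC3A transcript and not the share of edited alleles or the amount of protein.

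In 5 of the 6 libraries MUC3A was, per length of transcript, the most abundant of the mucin genes ranked. Those ranked were MUC3A, MUC1, MUC12, MUC13, MUC5B, MUC6 and MUC16. Mucin-like genes such as CD164 (140 to 273 CPM over the libraries) and MCAM (47.1 to 119 CPM) were not ranked. Levels per length are given as FPKM, the read count divided by the library total and by the joined length of the gene's GENCODE V29 exons. The submitters' notes name build hg18, so these lengths may not match the gene models used for counting, and the order could depend on that. MUC3A lay at 4.83 and 2.38 FPKM in KO1, 2.83 and 2.05 FPKM in KO2, and 4.97 and 2.06 FPKM in WT, each with the HCT library first. MUC1 was at 0.339 and 0.915 FPKM in KO1, 1.75 and 2.30 FPKM in KO2, and 0.710 and 1.13 FPKM in WT. It was second in 3 of the 4 KO2 and WT libraries, and it exceeded MUC3A only in the HCT116 library of KO2, where MUC3A was second. MUC13 lay at 0.636 and 1.40 FPKM in KO1, above MUC1 in both libraries, at 0.561 and 0.262 FPKM in KO2, and at 0.219 and 0.105 FPKM in WT. MUC12 stayed between 0.0153 and 0.167 FPKM and MUC5B between 0.0237 and 0.0601 FPKM over the 6 libraries, and their order differed by set: MUC12 was above MUC5B in all 3 HCT libraries and below it in all 3 HCT116 libraries. The first 3 places were the same in 6 of 6 libraries when the length of the longest transcript was used.

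**Figure D1:**
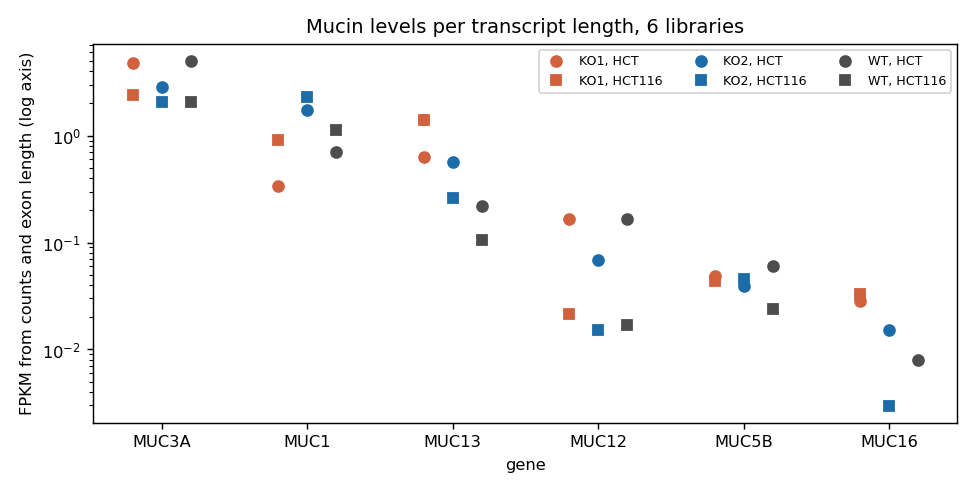
FPKM (log axis), computed from the counts and the exon length, of 6 mucin genes in the 6 libraries, coloured by group (KO1, KO2, WT) with circles for the HCT set and squares for the HCT116 set; the WT library of the HCT116 set had 0 reads of MUC16 and is not drawn there. MUC3A lies between 2.05 and 4.97 FPKM, and MUC1 passes it only in the HCT116 library of KO2.

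MUC1 was higher in KO2 than in WT in both sets and was the only 1 of the 5 tested mucins to pass the test in that comparison. Read counts were 23 and 59 in KO1, 147 and 166 in KO2, and 48 and 73 in WT, with the HCT library first. These correspond to 1.54 and 4.56 CPM in KO1, 7.69 and 11.5 CPM in KO2, and 3.12 and 5.74 CPM in WT. Both KO2 libraries lay above all 4 others, and KO1 overlapped WT, with KO1 below WT in each set.

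In KO2 against WT, MUC1 rose 2.23-fold, a log2 fold change of 1.15 ± 0.29 with a 95% interval of 0.52 to 1.79 and an edgeR adjusted p of 0.0463. Of all tested genes, 4.62% were called in that comparison in either direction and 2.15% were called higher in KO2. The within-set log2 ratios were 1.26 (HCT) and 0.98 (HCT116). In KO1 against WT the value was -0.60 ± 0.32 with an interval of -1.30 to 0.10 and an edgeR adjusted p of 0.681, and edgeR called 0 of the 5 mucins there, against 1.03% of all genes; 1 (MUC13) had an unadjusted p under 0.05, and DESeq2 called that 1. Between the guides, MUC1 was higher in KO2 than in KO1 by 1.75 ± 0.30 (edgeR adjusted p 0.0041), the 1 mucin called of 5, against 9.66% of all genes called and 4.27% called higher in KO2. The KO2 against WT call lies near the threshold: the adjusted p was 0.0656 with DESeq2, 0.0513 with limma-voom and 1 in edgeR without the set term. Leaving out 1 library ended it in 3 of 6 cases. These were the HCT library of KO2 (log2 fold change 0.87) and either WT library (1.19 without HCT, 1.12 without HCT116). Without the set term the call of KO2 against KO1 was lost too, at 1.65 with an edgeR adjusted p near 1. That call was also lost without the HCT library of KO1, at 1.39.

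MUC1 lies at chr1:155185824-155192916 on the minus strand, and AL713999.1, which overlaps it on the same strand, had 5 reads in all. Its promoter and that of MUC13 are shown because these were the members with the clearest separations from WT, from 250 bases before to 50 after the start site (RefSeq, GRCh38.p14), with the searched motifs TATAAA (the TATA box) and GGGCGG (a GC box) in capitals.

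MUC1 promoter: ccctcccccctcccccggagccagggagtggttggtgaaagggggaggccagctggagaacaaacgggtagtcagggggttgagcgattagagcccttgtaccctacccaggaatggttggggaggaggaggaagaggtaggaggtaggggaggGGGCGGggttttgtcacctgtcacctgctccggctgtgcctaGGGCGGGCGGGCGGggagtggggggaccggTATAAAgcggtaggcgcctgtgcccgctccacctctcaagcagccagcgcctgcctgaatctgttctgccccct

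MUC13 promoter: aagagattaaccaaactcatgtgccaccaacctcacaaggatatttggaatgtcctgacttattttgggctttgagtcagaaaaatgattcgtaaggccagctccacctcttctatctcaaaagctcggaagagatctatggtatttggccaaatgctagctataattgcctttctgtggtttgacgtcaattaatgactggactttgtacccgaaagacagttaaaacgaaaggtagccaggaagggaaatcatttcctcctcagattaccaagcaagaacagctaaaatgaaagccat

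The MUC1 window, chr1:155192866-155193165 on the minus strand, is 65.7% G and C and holds 1 TATAAA at position -24 and 4 GGGCGG, 3 of them overlapping. The MUC13 window, chr3:124934702-124935001 on the minus strand, is 41.0% G and C and holds neither. Both strands were searched. Among 35116 RefSeq promoters of the same length, 11.5% hold TATAAA and 45% GGGCGG.

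MUC13, a membrane mucin of intestinal epithelium, was higher in both knockout groups than in WT in each set, without passing the test in either comparison. Reads numbered 32 and 67 in KO1, 35 and 14 in KO2, and 11 and 5 in WT, with the HCT library first. The levels were 2.14 and 5.18 CPM in KO1, 1.83 and 0.967 CPM in KO2, and 0.716 and 0.393 CPM in WT. Neither knockout group overlapped WT, as for 6.86% of all genes (higher in KO1) and 11.9% (higher in KO2), and KO2 lay below KO1 without overlap, as for 11.5% of all genes. MUC13 was the 1 member of 5 above WT without overlap in KO1, and MUC1 and MUC13 were the 2 of 5 in KO2; MUC1 in KO2 also lay above KO1 without overlap, as for 13.3% of all genes.

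The fitted log2 fold change of MUC13 was 2.64 ± 0.61 in KO1 against WT, with a 95% interval of 1.29 to 3.98 and an edgeR adjusted p of 0.0807. The within-set ratios, shrunk by the prior count of 2, were 3.33 (HCT116) and 1.42 (HCT). Without the HCT116 library of KO1 the fitted value was 1.55. The call depended on the setting: the adjusted p was 0.0217 with DESeq2, 0.00686 with no filter on low counts and 1.42e-05 in a fit of KO1 and WT alone, against 0.119 with limma-voom, 0.523 with DESeq2 without the set term and 1 in edgeR without it. The authors' deposited table gives MUC13 a log2 fold change of 2.70, with an unadjusted p of 0.00391 and an adjusted p of 0.99999. In KO2 against WT the value was 1.33 ± 0.65 (edgeR adjusted p 0.301), and the within-set ratios were 1.21 (HCT) and 1.06 (HCT116). KO2 against KO1 gave -1.31 ± 0.53 (edgeR adjusted p 0.150), with within-set ratios of -0.21 (HCT) and -2.27 (HCT116).

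MUC12, the membrane mucin encoded next to MUC3A on chromosome 7, did not pass the test in any comparison of groups. It counted 41 and 5 reads in KO1, 21 and 4 in KO2, and 41 and 4 in WT, with the HCT library first. The levels were 2.75 and 0.386 CPM in KO1, 1.10 and 0.276 CPM in KO2, and 2.67 and 0.315 CPM in WT. The libraries of the HCT set were higher in every group, by 7.11-fold in KO1, 3.98-fold in KO2 and 8.48-fold in WT. Within the HCT set KO2 was the lowest, while in the HCT116 set KO2 and WT had 4 reads each. The log2 fold change was 0.09 ± 0.50 in KO1 against WT (95% interval -1.002 to 1.18, edgeR adjusted p 0.984) and -1.03 ± 0.54 in KO2 against WT (-2.22 to 0.16, adjusted p 0.331).

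In the HCT set MUC3A and its neighbour MUC12 had their lowest level in KO2. In the HCT116 set KO2 and WT were close, at 24.6 and 25.1 CPM for MUC3A and with 4 reads each for MUC12. Both genes were lower in the HCT116 set than in the HCT set. The difference between sets was -0.75 ± 0.15 for MUC3A (edgeR adjusted p 0.00121) and -2.65 ± 0.47 for MUC12 (0.000444), while MUC1 was higher in the HCT116 set by 0.92 ± 0.25 (0.00637). These are 3 of 5 members, against 63.9% of all genes called between the sets. MUC13 and MUC5B did not pass that test, at 0.12 ± 0.48 (adjusted p 0.834) and -0.20 ± 0.49 (adjusted p 0.730).

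**Figure D2:**
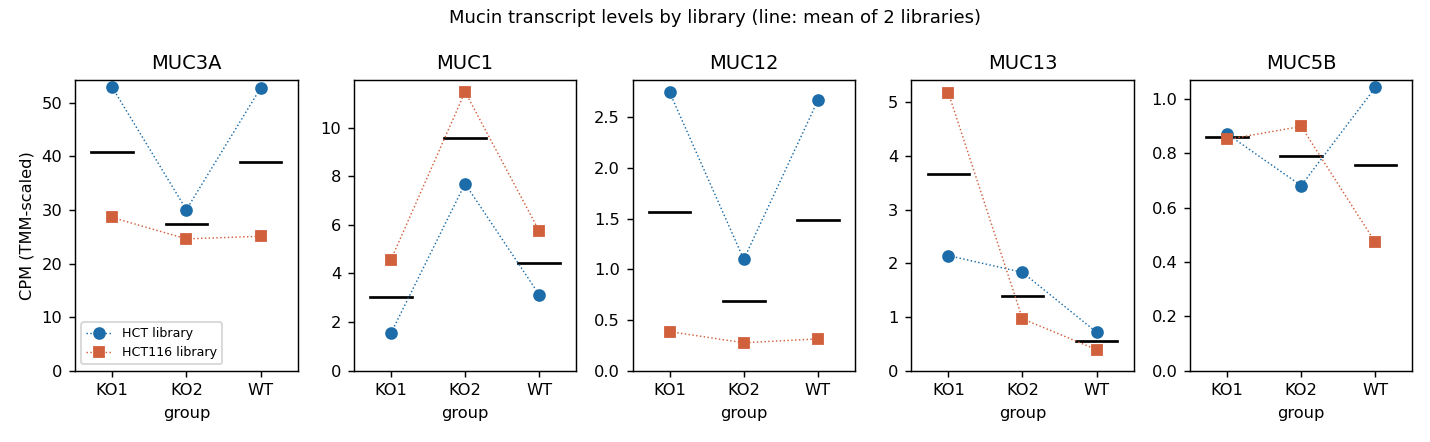
TMM-scaled CPM of the 5 tested mucins in KO1, KO2 and WT (black line, mean of 2 libraries; circles, HCT set; squares, HCT116 set; dotted lines join libraries of 1 set), each panel with its own axis starting at 0. MUC1 is highest in both KO2 libraries (7.69 and 11.5 CPM), MUC13 is lowest in both WT libraries (0.716 and 0.393 CPM), and MUC12 differs more between sets than between groups.

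Secreted mucins were at or near the detection limit. MUC5B, a gel-forming mucin of airway and gland mucus, counted 13 and 11 reads in KO1, 13 and 13 in KO2, and 16 and 6 in WT, or 0.861 ± 0.0148 CPM, 0.789 ± 0.154 CPM and 0.757 ± 0.403 CPM (SD, n = 2 each). The 3 groups overlapped, and the log2 fold changes were 0.17 ± 0.60 in KO1 against WT (edgeR adjusted p 0.978) and 0.03 ± 0.60 in KO2 against WT (adjusted p 0.985). At this depth changes of MUC5B between -1.15 and 1.49 in KO1 and between -1.29 and 1.34 in KO2 lie inside the 95% intervals. MUC6 had 3 reads over all libraries and was taken as not expressed, under the rule of fewer than 10 reads. MUC20, MUC5AC and MUC2 had no row and, under the same rule, count as not expressed; they are not analysed here. A count of 3 reads corresponds to 0.157 to 0.236 CPM, depending on the library. Of the goblet cell genes, AGR2 and TFF1 had 1 read each over all libraries, TFF2 12, SPDEF 26 and ATOH1 29.

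**Figure D3:**
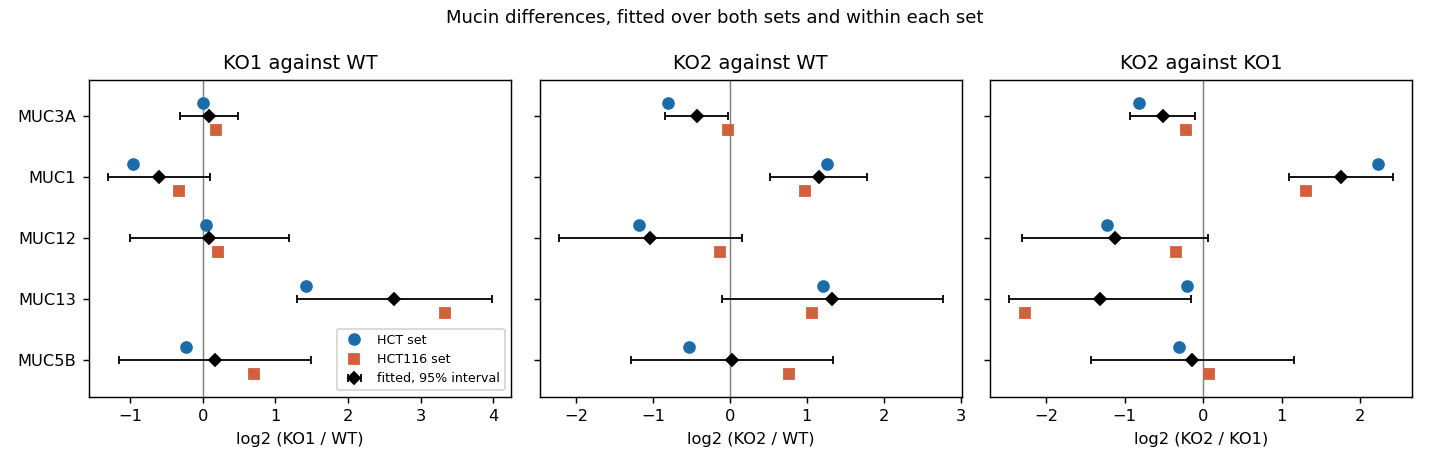
Log2 ratios of the 5 tested mucins in KO1 against WT, KO2 against WT and KO2 against KO1; diamonds with bars are fitted values with 95% intervals, circles the ratio within the HCT set and squares the ratio within the HCT116 set. The 2 sets share a sign for MUC3A, MUC1, MUC12 and MUC13 in all 3 panels, while MUC5B has opposite signs. Ratios within a set carry the prior count of 2, and fitted values do not.

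KO2 had the largest MUC1 share of the reads that fell on mucin genes. Over 7 mucin genes (the 6 with a row and MUC16, a membrane mucin with 57 reads in all that is not a member) there were 916 and 533 reads in KO1, 802 and 555 in KO2, and 931 and 409 in WT, with the HCT library first. MUC3A took 86.1% and 69.4% of them in KO1, 71.6% and 64.1% in KO2, and 87.0% and 78.0% in WT. MUC1 took 2.51% and 11.1% in KO1, 18.3% and 29.9% in KO2, and 5.16% and 17.8% in WT. Its share was higher in KO2 than in WT in each set, and the exact 95% binomial intervals, which cover counting error only, did not overlap (15.7 to 21.2 in KO2 against 3.83 to 6.78 in WT in the HCT set, and 26.1 to 33.9 against 14.3 to 21.9 in the HCT116 set). MUC13 took 3.49% and 12.6% in KO1, 4.36% and 2.52% in KO2, and 1.18% and 1.22% in WT. Shares are of reads and not of molecules, since long transcripts give more reads. The MUC1 share uses the same MUC1 counts as the test above and is no separate support for it. It also depends on the MUC3A reads, which were 574 in KO2 and 810 in WT in the HCT set, and 356 and 319 in the HCT116 set.

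**Figure D4:**
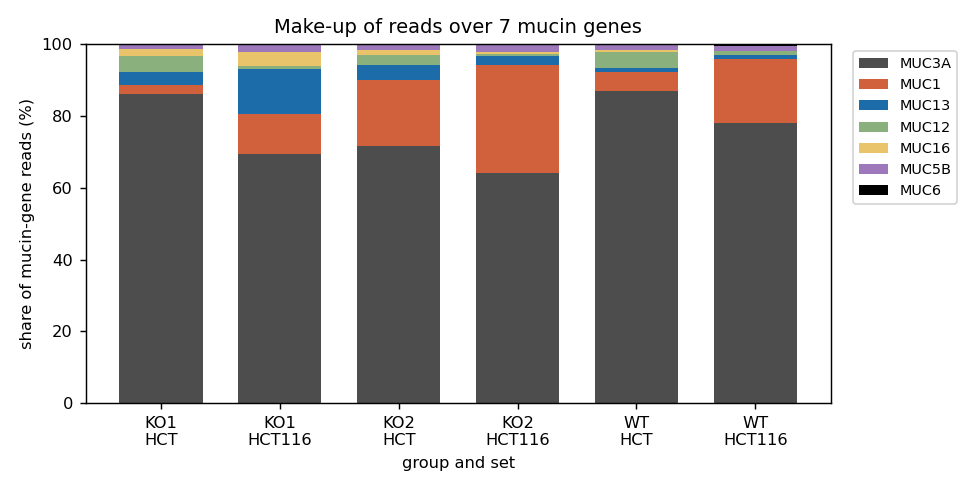
Share (%) of the reads over 7 mucin genes that fell on each gene, 1 bar per library, for KO1, KO2 and WT in the HCT and HCT116 sets. MUC3A makes up between 64.1% and 87.0%, and the MUC1 share is largest in the 2 KO2 libraries (18.3% and 29.9%).

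Of 30 listed enzymes that build mucin-type O-glycans, 22 were tested and 3 were called in KO2 against WT, where 4.62% of all genes were called. In that comparison 2 rose and 1 fell, with a median log2 fold change of -0.01, and in KO1 against WT edgeR and DESeq2 called 0 (2 had an unadjusted p under 0.05), with a median of 0.07; the median of all genes was 0.00 in both. The changed genes are GALNT5, GALNT7 and GALNT10, of the family that adds the first N-acetylgalactosamine to serine or threonine. GALNT5 lay at 9.11 and 6.26 CPM in KO1, 18.005 and 16.3 CPM in KO2, and 10.54 and 4.72 CPM in WT, and rose by 1.23 ± 0.25 in KO2 (edgeR adjusted p 0.0198). GALNT7 lay at 22.2 and 19.7 CPM in KO1, 47.4 and 33.0 CPM in KO2, and 28.9 and 19.98 CPM in WT, and rose by 0.72 ± 0.16 in KO2 (edgeR adjusted p 0.0275). For both genes the KO2 libraries lay above all others. Of all genes, 11.9% lay higher in KO2 than in WT without overlap, and 13.3% higher than in KO1. GALNT10 fell by 0.48 ± 0.12 in KO2 (edgeR adjusted p 0.0449), at 85.5 and 49.9 CPM in KO2 against 116 and 71.8 CPM in WT, and these libraries overlapped. Without the set term edgeR kept none of the calls on the lists given here. The GALNT5 call was also lost without the HCT116 library of WT, that of GALNT7 without either WT library, and that of GALNT10 in 4 of 6 fits that left out 1 library.

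Of 24 goblet and secretion genes 9 were tested: 1 rose in KO1, where 1.03% of all genes were called, and 1 rose and 1 fell in KO2, where 4.62% were. SYTL2, a regulator of vesicle exocytosis, rose by 1.25 ± 0.22 in KO1 (edgeR adjusted p 0.0226) and 0.88 ± 0.22 in KO2 (edgeR adjusted p 0.0447), at 49.0 and 30.9 CPM in KO1, 37.3 and 24.3 CPM in KO2 and 26.9 and 8.97 CPM in WT. Its WT library of the HCT116 set was the lowest of all 6, and without it the values were 0.86 in KO1 and 0.49 in KO2, both no longer called. Of 20 genes for partners of membrane mucins, 19 were tested, and EZR, which links membrane proteins to actin, fell in KO2 by 0.93 ± 0.16 (edgeR adjusted p 0.00819), at 1031 and 1099 CPM in KO2 against 2362 and 1764 CPM in WT. Both KO2 libraries were below both WT libraries, an order whose share over all genes is not given here, so it is not read as a result. EZR gave 0.28 in KO1 against WT (edgeR adjusted p 0.710). Of 6 other mucin-named or mucin-like genes tested, MCAM (the adhesion molecule CD146) fell in KO2 by 0.60 ± 0.13 (edgeR adjusted p 0.0295), at 66.6 and 47.1 CPM in KO2 against 93.1 and 78.0 CPM in WT. The EZR call held in 6 of 6 fits that left out 1 library, and the MCAM call in 3 of 6. In KO1 against WT, edgeR and DESeq2 called 0 of the 19 partner genes and 0 of the 6 mucin-like genes, with 3 genes of each list at an unadjusted p under 0.05.

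Of the transcription factors known to act on mucin genes, 18 are described here and 13 were tested; 1 rose and 0 fell in KO1 (1.03% of all genes were called), and 0 rose and 1 fell in KO2 (4.62% of all genes). KLF4, a factor of goblet cell differentiation that is also in the secretion list, lay at 80.5 and 35.1 CPM in KO1, 9.63 and 10.6 CPM in KO2, and 43.3 and 18.5 CPM in WT. KLF4 fell in KO2 by 1.49 ± 0.28 (edgeR adjusted p 0.0125), gave 0.90 ± 0.26 in KO1 against WT (0.173), and differed between the guides by -2.40 ± 0.28 (0.000345). HNF4A, a factor of intestinal epithelium, rose in KO1 by 1.10 ± 0.23 (edgeR adjusted p 0.0499), at 14.5 and 10.2 CPM in KO1 against 6.44 and 5.03 CPM in WT. Leaving out 1 library at a time, the KO2 call of KLF4 held in 6 of 6 fits. The KO1 call of HNF4A held in 2 of 6, being lost without any 1 of the KO1 or WT libraries.

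**Figure D5:**
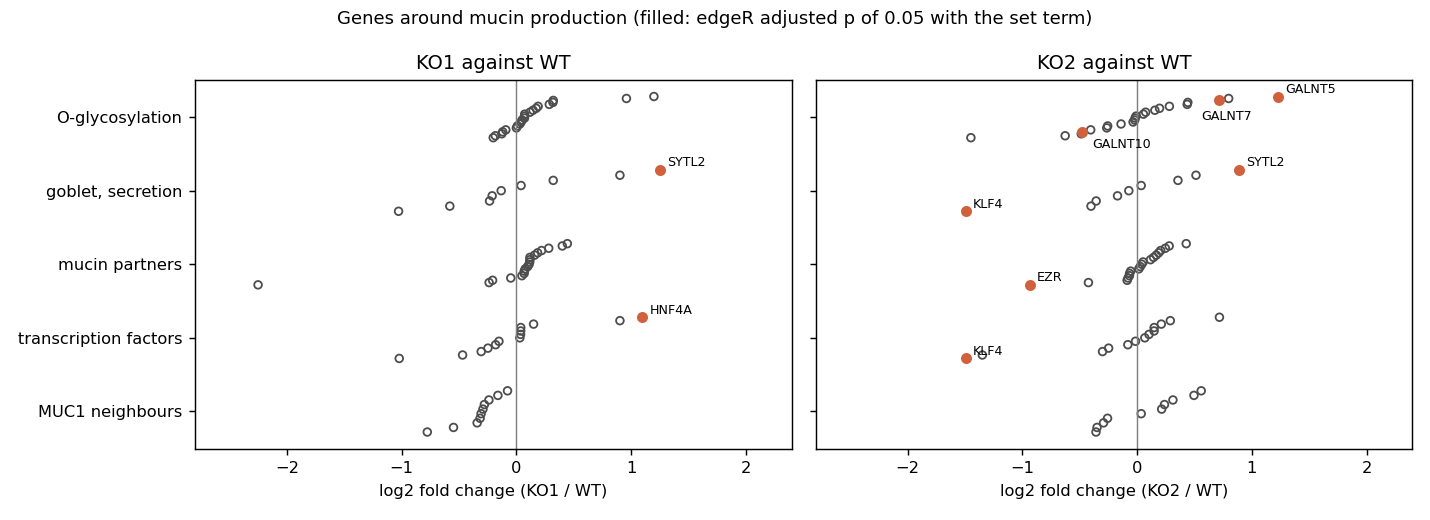
Log2 fold changes of the tested genes of 5 lists (O-glycosylation enzymes, goblet and secretion genes, partners of membrane mucins, transcription factors, and neighbours of MUC1) in KO1 against WT and KO2 against WT; filled points with names passed the edgeR test and open points did not. Calls lie on both sides of 0, and 0 of the 10 MUC1 neighbours was called.

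For the genes beside MUC1 and MUC13, the shares over all genes are 1.03% (KO1 to WT), 4.62% (KO2 to WT) and 9.66% (KO2 to KO1), and with so few neighbours the counts are not read as differing from them. Of 10 tested neighbours of MUC1, edgeR and DESeq2 called 0 in KO1 or KO2 against WT (2 and 4 had an unadjusted p under 0.05), with a median of -0.30 in KO1 (0 of 10 positive) and 0.13 in KO2 (6 of 10 positive). Between the guides 2 rose in KO2 against KO1, SLC50A1 (a sugar transporter) and EFNA4 (an ephrin ligand), with a median of 0.54 over the 10. Of all 12679 tested genes, 6373 were positive in KO1 against WT and 6339 in KO2 against WT. The median over all genes was 0.00 in both and between the guides. SLC50A1 lay at 49.9 and 52.8 CPM in KO1, 72.3 and 90.8 CPM in KO2, and 52.8 and 62.6 CPM in WT, and ADAM15, a membrane protease and the other neighbour with a high level, at 159 and 262 CPM in KO1, 149 and 260 CPM in KO2, and 169 and 343 CPM in WT. Of 13 tested neighbours of MUC13, MUC20 and the secreted mucins on 11p15, 1 was called, the integrin gene ITGB5, which fell in KO2 by 0.996 ± 0.128 (edgeR adjusted p 0.00145), at 71.8 and 103 CPM in KO2 against 141 and 209 CPM in WT.

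Markers of other cells, of which 3 leukocyte, 3 fibroblast and 1 HEK293T-list genes were tested, gave 0 edgeR calls against WT and 2 between the guides. Over all genes edgeR called 1.03% (KO1 to WT), 4.62% (KO2 to WT) and 9.66% (KO2 to KO1). DESeq2 called 205 of all genes in KO1 against WT and 613 in KO2 against WT. Of the leukocyte list 8 of 10 genes had a row, with 332 and 272 reads summed in KO1, 127 and 205 in KO2, and 147 and 133 in WT, and over all libraries PTPRC had 2 reads and CD14 6. The highest of them, CD68, lay at 19.03 and 17.5 CPM in KO1, 4.66 and 11.8 CPM in KO2, and 7.55 and 8.50 CPM in WT (KO1 against WT 1.21 ± 0.30, edgeR adjusted p 0.106), and DESeq2 called 1 of the 3 tested leukocyte genes there. CD68 fell in KO2 against KO1 by 1.25 ± 0.30 (edgeR adjusted p 0.0248), in the comparison in which MUC1 was also called. ITGAM stayed between 0.680 and 1.24 CPM. Of the fibroblast list 8 of 10 had a row, with 1173 and 668 reads in KO1, 1448 and 962 in KO2, and 1161 and 609 in WT. COL1A1 stayed between 34.3 and 66.4 CPM. ACTA2 lay at 14.1 and 16.2 CPM in KO1, 8.06 and 10.6 CPM in KO2, and 9.63 and 5.03 CPM in WT (KO1 against WT 1.04 ± 0.29, edgeR adjusted p 0.166). In KO1 against WT, 2 of 3 tested fibroblast genes and 2 of 3 tested leukocyte genes had an unadjusted p under 0.05; in KO2 against WT these were 1 of 3 and 0 of 3. Of the list for the HEK293T packaging line 5 of 8 had a row and 1 was tested, PAX2, at 9.51 and 21.5 CPM in KO1, 18.5 and 29.6 CPM in KO2, and 10.9 and 23.7 CPM in WT. PAX2 had an unadjusted p under 0.05 in KO2 against WT and rose in KO2 against KO1 by 0.70 ± 0.19 (edgeR adjusted p 0.0362). DESeq2 did not call it between the guides. MUC1 and 9.66% of all genes were called by edgeR in that comparison. Among 6 tested colon epithelial markers edgeR called 0 against WT, while DESeq2 called 3 in KO1 and 0 in KO2; 4 had an unadjusted p under 0.05 in KO1 and 0 in KO2. In KO2 against KO1 4 of the 6 fell (CDH1, KRT8, KRT18 and KRT19). Of all 12679 tested genes, 683 were called lower there, and 9.66% were called in either direction. The keratins KRT8 and KRT19 both gave 0.67 ± 0.17 in KO1 against WT (edgeR adjusted p 0.106), beside the MUC13 values of KO1. The part these genes had in the mucin values was not tested.

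Genes with a profile like that of MUC3A and of MUC1 over the 6 libraries were ranked by likeness, which was the root-mean-square distance between centred log2 CPM profiles, over the 11405 tested genes whose log2 CPM averaged 1 or more. The nearest to MUC3A were ILDR1 (distance 0.0494, Pearson r 0.994), CLCN4 (0.0521, 0.995), LSM11 (0.0596, 0.997), VPS13D (0.0671, 0.990) and PDK3 (0.0757, 0.990), and 949 genes lay within 0.25. For MUC1 1 gene lay within 0.25, ZMYND15 (0.228, r 0.969), followed by KCNAB3 (0.296, 0.952), CSTA (0.298, 0.943), ATP6V0D1 (0.302, 0.973) and ASB16 (0.306, 0.940). The number within a fixed distance also depends on depth and on how far a gene's level moves: MUC1 had 23 to 166 reads per library and MUC3A 319 to 810, so the 2 numbers are not compared. The points share the 6 libraries, their sets and their scaling, and the r values are a description.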

How the data were processed

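The authors deposited read counts per gene in comparison tables of each knockout against WT, with their own log2 fold changes and p-values. Per the submitters' processing notes, STAR, HTSeq 0.6.0 and DESeq2 were used with build hg18, and no source says if reads were counted by strand. In GENCODE V29, antisense genes overlap MUC3A (AC254629.1), MUC12 (AC105446.1) and MUC5B (MUC5B-AS1), and their reads are not given here. The WT counts were identical in both tables, which were joined by symbol (15284 genes in both, 264 only in the KO1 table, 429 only in the KO2 table); 40 other per-sample columns were not used, the deposited FPKM among them. Column names give the group and the prefix but not the labels' replicate number, so the set paired the libraries: deviations from group means correlated at 0.867 (KO1 and WT), 0.815 (KO2 and WT) and 0.783 (KO2 and KO1).

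From the deposited counts, edgeR 4.0.16 (R 4.3.3) fitted group plus set over all 6 libraries with TMM scaling and a count filter of 10; p-values were adjusted over 12679 genes by Benjamini-Hochberg with a threshold of 0.05. SEs come from the F statistics and intervals are 95%. Alternatives were no set term, other size factors, DESeq2 1.42.0, limma-voom (limma 3.58.1), no filter, only the groups compared and leaving out each library; DESeq2 and limma-voom without the set term were added after the data were seen. The scripts were tested on simulated data. Members, lists and tests were chosen with earlier results of these data known. Named genes are all members, genes called in each list (up to 6, or the 2 of highest level where none was called) and the 5 genes nearest to MUC3A and to MUC1. The colon markers other than KRT8 and KRT19, the goblet genes, MUC16, SLC50A1 and EFNA4 were named outside this rule, after their values were seen. Of the transcription factor list, 2 genes are not reported here. Sequence positions come from GENCODE V29 transcripts and RefSeq promoters on GRCh38. The reads between libraries of 1 group differed by more than sampling noise (chi-square per degree of freedom 119 in KO1, 91.5 in KO2 and 142 in WT).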

Additional observations from a re-analysis of the deposited data

Results flagged for a closer look

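MUC1 stood out because its change differed between the guides: it was higher by 1.75 (log2) in KO2 than in KO1, in a direct test of the difference (edgeR adjusted p 0.0041), with KO2 above KO1 in 2 of 2 sets.

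MUC5B stood out because its direction differed between the sets. With the prior count of 2, the log2 ratio of KO1 over WT was -0.23 for the HCT pair and 0.70 for the HCT116 pair. That of KO2 over WT was -0.53 for the HCT pair and 0.77 for the HCT116 pair. The difference between the sets was not tested, since 1 library per group and set leaves none to estimate the spread, and MUC5B had between 6 and 16 reads per library.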

How the results depend on the processing

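The set term decides the calls. Without the replicate block (the set), edgeR called 0 genes in all 3 comparisons of groups (KO1 to WT, KO2 to WT, KO2 to KO1), where it called 130, 586 and 1225 with it; at an unadjusted p of 0.05 it had 173, 310 and 515. DESeq2 without the block called 16, 44 and 119 genes, and limma-voom without it 0, 0 and 0. In KO1 against WT the count was 205 with DESeq2, 312 with no filter on low counts and 879 with only the groups compared, and in KO2 against WT 938 with no filter. MUC1 in KO2 against WT was 1.11 without the block, 1.13 with DESeq2, 1.12 with limma-voom, and 1.07 and 1.15 without the block in DESeq2 and limma-voom, none of them past the threshold. MUC1 in KO2 against KO1 was 1.65, 1.64 and 1.82 without the block in edgeR, DESeq2 and limma-voom, also not called. MUC13 in KO1 against WT became called at 2.71 with DESeq2, 2.64 with no filter and 2.54 with only the groups compared, and MUC3A in KO2 against KO1 at -0.53 with only the groups compared (edgeR adjusted p 0.0418). The cause was not tested.

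Leaving out 1 library at a time, called genes ranged from 69 to 901 in KO1 against WT, 318 to 2171 in KO2 against WT, 392 to 3203 in KO2 against KO1 and 6482 to 8754 between the sets. For the members only sizes are listed here, since each fit leaves 1 library in a group. In KO1 against WT the ranges were -0.13 to 0.35 for MUC3A, -1.12 to -0.25 for MUC1, -0.091 to 0.56 for MUC12, 1.55 to 3.72 for MUC13 and -0.36 to 0.95 for MUC5B. In KO2 against WT they were -0.77 to -0.081 for MUC3A, 0.87 to 1.46 for MUC1, -1.24 to -0.29 for MUC12, 0.38 to 2.04 for MUC13 and -0.50 to 0.81 for MUC5B. In KO2 against KO1 they were -0.84 to -0.17 for MUC3A, 1.39 to 2.24 for MUC1, -1.33 to -0.38 for MUC12, -2.40 to -0.24 for MUC13 and -0.57 to 0.35 for MUC5B. Levels per length from the deposited FPKM were planned and not run. The lone library left in a group is then assumed to vary like the others. With 72 reads of MUC5B and 116 of MUC12 in all, depth limits both.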
